A study of Mus musculus with 12 samples.

Results

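PpargΔ/Δ and A-ZIP mice, a pair of models that lack fat, were compared by how far each departed from its own control in the kidney. For every gene the effect of Pparg loss (PpargΔ/Δ minus control) was reduced by the effect of the A-ZIP transgene (AZIP minus FVB control), and the result is called here the difference of effects. All 12 arrays of the series entered, chosen by title, as 4 groups of 3, and 19938 genes were tested. A gene whose effect in one line is not matched in the other has a difference away from 0, and a gene that moves alike in both has one near 0.

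Every animal was 3 weeks old and whole kidney was taken. The PpargΔ/Δ mice, which the series title calls PPARgamma null, and their controls were on a mixed C57BL6/SV129 background, and the AZIP mice and their controls were FVB. The labels name the former controls only as control, all mice were killed with CO2. Each array held a pool of the RNA of 3 animals (36 mice in all), so every group has n = 3 and the errors describe pools, not single animals. Since the mutation and the strain background change together between the lines, the 2 cannot be told apart in the difference of effects.

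PPARγ is a nuclear receptor that heterodimerises with RXR and is required to form adipocytes. It is also found in kidney, in collecting duct, endothelium and the urothelium that lines the renal pelvis, where it is known to promote differentiation of the surface cells. A-ZIP mice express a dominant-negative leucine zipper protein from the promoter of Fabp4, which blocks C/EBP and AP-1 type factors in fat cells, so they too lack fat but keep an intact Pparg gene. Both models are therefore known for lipodystrophy with insulin resistance and high circulating lipids, and PpargΔ/Δ mice in addition lack the receptor in other tissues.

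Values are log2 levels made by RMA, a method that corrects background and normalises across arrays. Array medians lay between 7.17 and 7.21. Pparg itself, read by 1 probe set, was at 8.0, 8.2 and 8.01 in PpargΔ/Δ, 7.9, 7.97 and 8.02 in the mixed controls, 8.23, 8.17 and 8.15 in A-ZIP and 7.96, 7.94 and 8.0 in FVB controls. It was not lower in the PpargΔ/Δ kidneys, so this probe set does not check the genotype, and its difference of effects was -0.11 ± 0.08 (SE; limma adjusted p = 0.915). Kidney identity was plain: Umod of the thick limb lay between 13.02 and 13.15 and Slc34a1 of the proximal tubule between 13.12 and 13.24 on all 12 arrays. Xist lay between 12.18 and 12.34 on all 12 arrays and the Y-linked Eif2s3y between 3.07 and 3.33, so no group stood apart in sex markers. In a whole kidney, fewer cells of a type and less RNA per cell cannot be told apart, which holds for every gene below.

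Only 4 genes differed between the lines at an adjusted p under 0.05 (limma, Benjamini-Hochberg over all 19938 genes; 0.0201% of genes tested). Actg2 and Krt5 had the higher effect in the PpargΔ/Δ line, and Cfi and Ptgds the lower. All 4 moved in the PpargΔ/Δ line and did not pass the threshold in the A-ZIP line, and no gene of the opposite kind, past the threshold in the A-ZIP line and in the difference but not in the PpargΔ/Δ line, was found. At an unadjusted p under 0.05 the difference held 1160 genes (5.82%), against 996.9 expected from uniform p-values, with 502 higher (2.52%) and 658 lower (3.3%). The same unadjusted limit took 20.4% of genes in the PpargΔ/Δ line and 16.4% in the A-ZIP line. Because the difference draws on 4 groups its SE was larger than that of one line, with a median of 0.0987 in log2 against 0.0698, and its 95% interval reached a median of 0.216 to either side. The number of genes past the threshold was 0 without A-ZIP array 1, A-ZIP array 2 or FVB control array 2 (1220, 1463 and 1063 genes at an unadjusted p under 0.05), 1 without mixed control array 1, 2 without A-ZIP array 3 and 9 without PpargΔ/Δ array 2. The call of Actg2 in the difference was lost without any of 3 arrays, that of Krt5 without any of 6, and those of Cfi and Ptgds each without any of 7. With the replicate number of the titles added as a block only Ptgds passed. With that block within each background only Krt5 and Upk1b did.

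**Figure D1:**
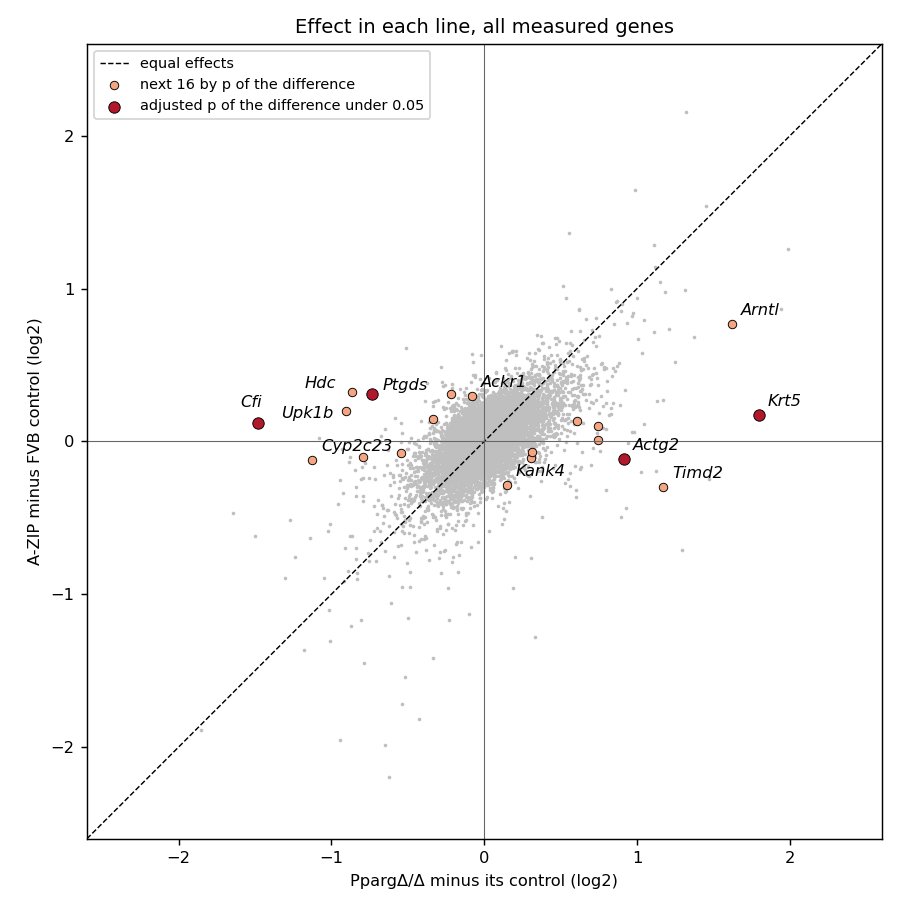
Effect in the A-ZIP line (vertical, log2) against the effect in the PpargΔ/Δ line (horizontal, log2) for 19938 genes, each a point. The dashed line marks equal effects, dark red points are the 4 genes past the threshold in the difference and orange points the next 16 by p. Krt5, Actg2, Timd2 and Arntl lie to the right of the line, and Cfi, Ptgds, Hdc, Upk1b and Cyp2c23 to its left.

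Krt5 encodes the type II keratin of basal cells in stratified epithelia, among them the basal layer of urothelium. The 3 PpargΔ/Δ arrays read 8.55, 8.32 and 8.95 and the mixed controls 6.86, 6.67 and 6.91, while A-ZIP read 6.8, 7.05 and 6.88 and FVB controls 6.7, 6.91 and 6.61. Every PpargΔ/Δ array lay above all other arrays, which formed 1 band with A-ZIP and both controls intermixed. In the PpargΔ/Δ line Krt5 rose 3.47-fold (log2 1.80 ± 0.14 SE, n = 3 against 3, limma adjusted p = 0.00018). In the A-ZIP line the effect was 0.17 ± 0.14 (95% interval -0.13 to 0.47, limma adjusted p = 0.612). The difference of effects was 1.63 ± 0.20 (95% interval 1.20 to 2.05, limma adjusted p = 0.0215), the greatest rise among the genes past the threshold.

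Actg2 encodes the gamma actin of enteric and other visceral smooth muscle. PpargΔ/Δ kidneys read 6.92, 7.09 and 7.14 against 6.24, 6.1 and 6.08 in their controls, and A-ZIP kidneys 6.12, 6.26 and 6.38 against 6.38, 6.45 and 6.28. The PpargΔ/Δ arrays were again the 3 highest of the 12, and A-ZIP overlapped its control. Actg2 rose 1.88-fold in the PpargΔ/Δ line (log2 0.91 ± 0.08 SE, limma adjusted p = 0.000305), and its A-ZIP effect was -0.12 ± 0.08 with a 95% interval from -0.29 to 0.06. The difference of effects was 1.03 ± 0.11 (95% interval 0.79 to 1.28, limma adjusted p = 0.0206), the smallest p of any gene.

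Cfi encodes complement factor I, the serine protease that cleaves C3b and C4b and so brakes the complement cascade. PpargΔ/Δ kidneys read 8.0, 8.0 and 7.81, their controls 9.43, 9.14 and 9.68, A-ZIP 5.9, 5.79 and 5.44 and FVB controls 5.46, 5.69 and 5.63. Mutants lay below controls in the mixed background with no overlap, whereas the FVB pair overlapped. Cfi fell by 1.48 ± 0.14 (SE) on the log2 scale in the PpargΔ/Δ line (2.79-fold, limma adjusted p = 0.000361), the A-ZIP effect was 0.12 ± 0.14 (95% interval -0.18 to 0.42), and the difference was -1.60 ± 0.20 (limma adjusted p = 0.0215). The 2 lines started from unequal levels: the mean of the mixed controls exceeded that of the FVB controls by 3.83 in log2. No detection call accompanies the values, so whether the FVB readings lie above background was not tested. If they do not, 3.83 is a lower limit and a fall in the A-ZIP line could not show.

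Ptgds encodes the lipocalin-type synthase of prostaglandin D2. It read 9.33, 9.51 and 9.64 in PpargΔ/Δ against 10.2, 10.2 and 10.3 in the mixed controls, and 9.32, 9.28 and 9.42 in A-ZIP against 8.83, 9.14 and 9.12 in FVB controls. The mutants lay below their controls in one line and above them in the other, without overlap in either. Ptgds fell by 0.74 ± 0.09 (SE) in log2 in the PpargΔ/Δ line (limma adjusted p = 0.00185). In the A-ZIP line the effect was 0.31 ± 0.09 and did not pass the threshold (95% interval 0.11 to 0.51, limma adjusted p = 0.109). The difference was -1.05 ± 0.13 (limma adjusted p = 0.0215). Mixed controls were 1.20 higher than FVB controls, and the means of the mutants, 9.50 ± 0.15 and 9.34 ± 0.07 (SD, n = 3), were closer together than those of the controls, 10.23 ± 0.06 and 9.03 ± 0.17.

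**Figure D2:**
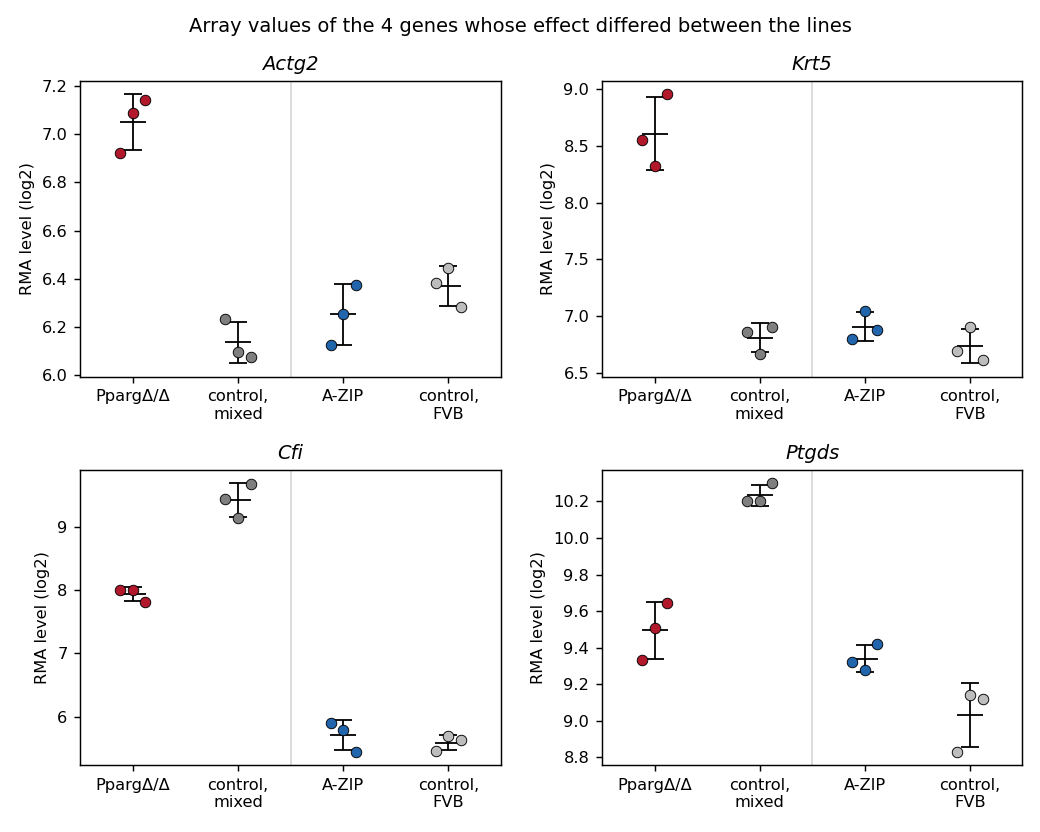
RMA level (log2, vertical) of the 4 genes past the threshold on each of the 12 arrays. Points are arrays (pools of 3 mice), bars the mean and SD of 3, and a grey line parts the mixed background from FVB. The 3 PpargΔ/Δ arrays of Krt5 lie between 8.32 and 8.95 and the other 9 between 6.61 and 7.05, while the Cfi panel shows the low FVB values, from 5.44 to 5.90.

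RefSeq promoter windows (GRCm38.p6) from 250 bases before to 50 after the start matched Krt5 and Ptgds among the 4 genes, and they are shown because these are the loci at which the 2 lines part. Both strands were searched for AGGTCA (the core of the sites that PPAR and RXR bind), TGANTCA (the AP-1 site), CACGTG (the E-box of clock factors), TATAAA and GGGCGG, and the letters found are in capitals. AGGTCA occurs in 16.3% of 32851 promoter windows of this length, TGANTCA in 7.81%, CACGTG in 7.15%, TATAAA in 13.6% and GGGCGG in 35.7%. Krt5, chr15:101712856-101713155, minus strand, holds 1 AGGTCA read on the other strand:
Krt5: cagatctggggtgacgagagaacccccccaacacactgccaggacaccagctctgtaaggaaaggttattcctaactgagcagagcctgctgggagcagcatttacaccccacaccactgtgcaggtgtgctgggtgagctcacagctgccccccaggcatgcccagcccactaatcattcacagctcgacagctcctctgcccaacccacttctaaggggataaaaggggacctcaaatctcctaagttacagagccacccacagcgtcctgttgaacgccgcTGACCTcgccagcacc
Ptgds, chr2:25469700-25469999, minus strand, holds 1 TGANTCA:
Ptgds: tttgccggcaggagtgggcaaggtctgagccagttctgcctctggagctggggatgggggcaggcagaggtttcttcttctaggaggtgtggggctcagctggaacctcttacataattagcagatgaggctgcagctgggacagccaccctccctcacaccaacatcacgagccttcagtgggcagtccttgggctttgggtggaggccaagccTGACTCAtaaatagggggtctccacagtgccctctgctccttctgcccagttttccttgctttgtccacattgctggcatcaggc
A match of letters is a description and says nothing of binding.

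A gene was called flat in the A-ZIP line where the unadjusted 95% interval of its effect lay within -0.4 to 0.4 in log2, which 88.2% of all genes met in the A-ZIP line. Among the 4 genes only Actg2 met it. Krt5, Cfi and Ptgds had upper bounds of 0.47, 0.42 and 0.51, and with a limit of log2 1.5 all 4 met it. The Ptgds interval held positive values only, and whether the FVB readings of Cfi lie above background was not tested. Meeting the wider limit thus does not show that a gene stayed still.

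The PpargΔ/Δ line had 1055 genes past the threshold (532 higher, 523 lower; 5.29% of genes) and the A-ZIP line 485 (260 higher, 225 lower; 2.43%). Of these, 246 passed in both, all 246 with the same sign. A further 809 passed in the PpargΔ/Δ line only, but 753 of them (93.1%) had the same sign in the A-ZIP line, where 65.5% of all genes did. Their median size was 0.332 in the PpargΔ/Δ line and 0.16 along the same sign in the A-ZIP line, and 274 (33.9%) had an unadjusted p under 0.05 in the difference. The A-ZIP interval was within 0.4 for 554 of them (68.5%), which is below the 88.2% of all genes. In the reverse direction 239 genes passed in the A-ZIP line only, of which 223 (93.3%) had the same sign in the PpargΔ/Δ line, 72 (30.1%) an unadjusted p under 0.05 in the difference and 173 (72.4%) a PpargΔ/Δ interval within 0.4 (86.7% of all genes). The test of the difference itself was passed by 4 of the 809 and by 0 of the 239.

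Since fewer than 20 genes passed, the 20 with the smallest p of the difference are described, 10 higher and 10 lower, with adjusted p-values up to 0.332. Of the 20, 17 were past the threshold in the PpargΔ/Δ line and 3 in the A-ZIP line (Kank4, Ackr1 and Arntl), 12 had opposite signs in the 2 lines, and 5 had controls at least 1 apart in log2 between the backgrounds (0.572% of all genes). The PpargΔ/Δ arrays did not overlap their controls for 19 (26.1% of all genes), and the A-ZIP arrays did not for 7 (22.5%). Since these genes were picked by the p of the difference, their signs and separation follow from that choice and are description only. In 10 the PpargΔ/Δ line moved while the A-ZIP interval lay within 0.4: Actg2, S100a8, Prxl2b, Cyp2c23, Serpinb5, Agxt2, Plin5, BC147527, Klhl29 and Lama3. Whether the low A-ZIP and FVB control readings of S100a8 lie above background was not tested. In the PpargΔ/Δ line the call of Agxt2 was lost without mixed control array 2, and that of BC147527 without PpargΔ/Δ array 2 or mixed control arrays 1 or 3.

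**Figure D3:**
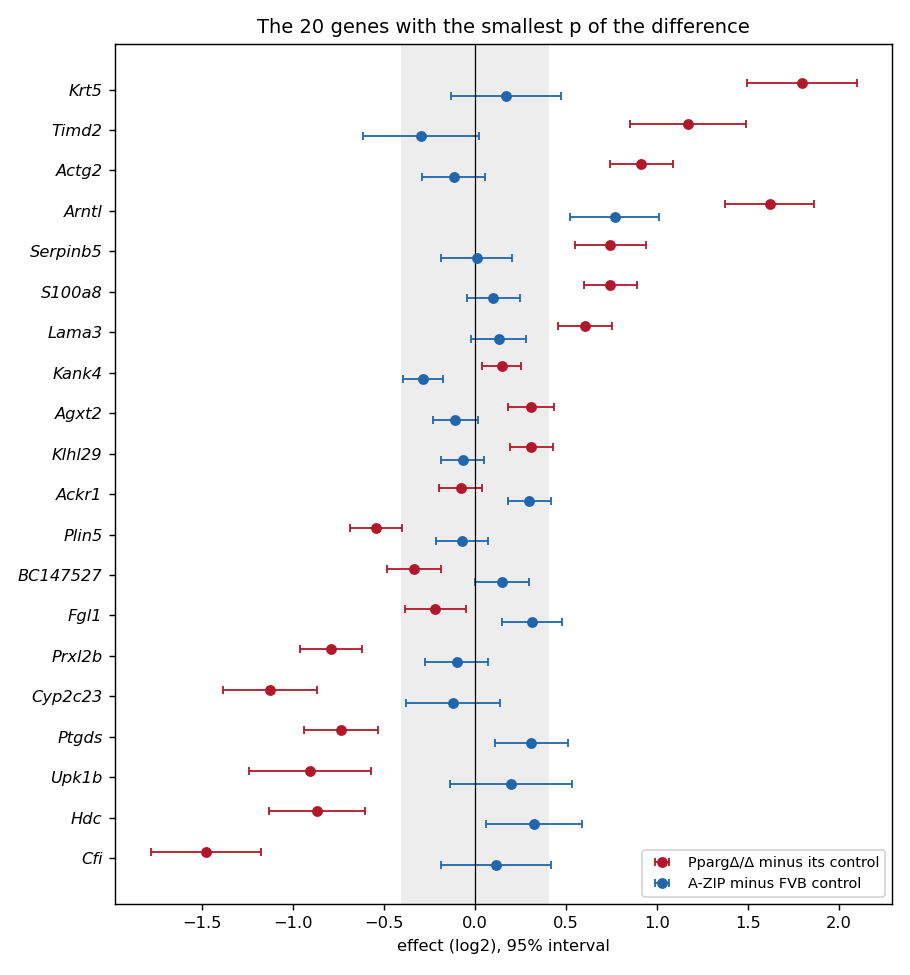
Effect in log2 with its 95% interval (horizontal) in the PpargΔ/Δ line (red) and the A-ZIP line (blue) for the 20 genes with the smallest p of the difference, in the order of the difference. The grey band marks -0.4 to 0.4. Krt5 at 1.80 and Cfi at -1.48 are the outermost red points, and most blue points lie in or across the band.

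Timd2, a TIM family receptor that takes up H-ferritin, read 7.5, 7.73 and 7.4 in PpargΔ/Δ against 6.18, 6.18 and 6.76 in controls, and 6.15, 6.29 and 5.97 in A-ZIP against 6.54, 6.35 and 6.42. Neither pair overlapped, and the directions were opposite. It rose by 1.17 ± 0.15 in log2 in the PpargΔ/Δ line (limma adjusted p = 0.00184) and its A-ZIP effect was -0.30 ± 0.15. The difference was 1.47 ± 0.21 and just missed the threshold (limma adjusted p = 0.0552).

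Hdc, histidine decarboxylase, which makes histamine, showed the pattern of Ptgds. It read 7.98, 8.26 and 8.58 in PpargΔ/Δ against 9.18, 9.05 and 9.18 in controls, and 8.27, 8.28 and 8.47 in A-ZIP against 8.09, 8.04 and 7.91. It fell by 0.87 ± 0.12 in the PpargΔ/Δ line (limma adjusted p = 0.00294), the A-ZIP effect was 0.33 ± 0.12 (limma adjusted p = 0.194), and the difference was -1.19 ± 0.17 (limma adjusted p = 0.0558). Controls differed by 1.12 between backgrounds, with the mixed ones higher.

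Prxl2b and Cyp2c23 act on lipids, the former as a prostamide and prostaglandin F synthase and the latter as an arachidonic acid epoxygenase. Prxl2b read 7.51, 7.78 and 7.62 against 8.49, 8.4 and 8.4 in the PpargΔ/Δ line and 8.89, 8.94 and 8.98 against 9.19, 9.01 and 8.91 in the A-ZIP line. Cyp2c23 read 9.89, 9.41 and 9.69 against 10.65, 10.8 and 10.9, and 7.86, 8.07 and 8.11 against 7.97, 8.19 and 8.24. Both fell in the PpargΔ/Δ line, by 0.79 ± 0.08 and 1.12 ± 0.12, and overlapped in the A-ZIP line, with effects of -0.10 ± 0.08 and -0.12 ± 0.12. Their differences, -0.69 ± 0.11 and -1.004 ± 0.17, had limma adjusted p-values of 0.119 and 0.137. As with Cfi, Cyp2c23 started from unequal controls, 2.65 higher in the mixed background (6.29-fold), and Lama3, the alpha chain of epithelial laminin, from controls 1.47 higher there.

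Serpinb5 (maspin, a serpin of stratified epithelium) rose by 0.74 ± 0.09 in the PpargΔ/Δ line and was at 0.01 ± 0.09 in the A-ZIP line (difference 0.73 ± 0.13, limma adjusted p = 0.168). Lama3 rose by 0.61 ± 0.07 and was at 0.13 ± 0.07 (difference 0.47 ± 0.10, limma adjusted p = 0.332). Agxt2, a mitochondrial aminotransferase that breaks down asymmetric dimethylarginine, rose by 0.31 ± 0.06 against -0.11 ± 0.06 in A-ZIP, and Klhl29, of the kelch family, by 0.31 ± 0.05 against -0.07 ± 0.05. BC147527 fell by 0.33 ± 0.07 against an A-ZIP effect of 0.15 ± 0.07. Fgl1, a secreted fibrinogen-like protein, passed in neither line, with effects of -0.22 ± 0.08 and 0.31 ± 0.08.

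PPARα, the sister receptor of PPARγ, drives fatty acid oxidation in tubule cells, and 27 of its known targets were measured. In the PpargΔ/Δ line 16 fell and none rose (2.62% of all genes fell), and in the A-ZIP line 1 fell (1.13%). Their median effect was -0.42 in the former and -0.17 in the latter, against -0.01 and 0.00 over all genes. The difference was below 0 for 24 of 27 (51.2% of all genes), 8 with an unadjusted p under 0.05 (3.3% of all genes), and its median was -0.18, but no member passed the threshold. The number that fell in the PpargΔ/Δ line dropped to 7 without PpargΔ/Δ array 3 or mixed control array 1, and the number in the A-ZIP line rose to 4 without A-ZIP array 1.

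Plin5, which coats lipid droplets in oxidative tissue, read 7.27, 7.41 and 7.23 in PpargΔ/Δ against 7.91, 7.82 and 7.81 in controls, and 7.61, 7.55 and 7.73 in A-ZIP against 7.62, 7.78 and 7.7. It fell in the PpargΔ/Δ line by 0.54 ± 0.07, with an A-ZIP interval of -0.22 to 0.07 and a difference of -0.47 ± 0.09 (limma adjusted p = 0.332). Pdk4, a kinase that inhibits pyruvate dehydrogenase, was lower in both mutants without overlap: it fell by 1.501 ± 0.23 in the PpargΔ/Δ line and was at -0.62 ± 0.23 in the A-ZIP line (limma adjusted p = 0.196). Plin2, the ubiquitous droplet protein, did likewise, with a fall of 0.84 ± 0.11 and an A-ZIP effect of -0.36 ± 0.11. Their differences were -0.88 ± 0.33 and -0.48 ± 0.16 (limma adjusted p = 0.834 and 0.817). Both read lower in the 2 mutants, and the larger fall in PpargΔ/Δ did not pass the test of the difference. The acyl-CoA thioesterase Acot4, the member that fell in the A-ZIP line, had effects of -0.54 in both lines.

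Other lists of fatty acid handling had medians of the difference nearer 0. Of 24 genes of mitochondrial fatty acid oxidation 4 fell in the PpargΔ/Δ line (2.62% of all genes) and 1 in the A-ZIP line (1.13%), with a median difference of -0.04. The 22 genes of peroxisomal oxidation had 8 and 5 that fell and a median difference of -0.09, and of 7 ketone body genes none passed in either line. With an array left out the falls in the PpargΔ/Δ line ran from 1 to 6 for the mitochondrial and from 3 to 11 for the peroxisomal genes. The peroxisomal falls in the A-ZIP line numbered 0 without FVB control array 1 or 2, 1 without A-ZIP array 2 or 3, and 3 without PpargΔ/Δ array 2, mixed control array 3 or FVB control array 3. Among 18 PPARγ targets of fat and endothelium 3 fell (2.62% of all genes) and 1 rose (2.67%) in the PpargΔ/Δ line, and 1 rose in the A-ZIP line (1.3%). Of their differences 15 were below 0 (51.2% of all genes), with a median of -0.13. Fabp4, the fatty acid binding protein of fat and capillary endothelium, read 9.74, 10 and 10.04 against 10.27, 10.24 and 10.28 in the PpargΔ/Δ line and 10.82, 10.53 and 10.58 against 10.27, 10.41 and 10.48 in the A-ZIP line. Its effects, -0.34 ± 0.09 and 0.26 ± 0.09, passed in neither line, and the difference was -0.59 ± 0.13 (limma adjusted p = 0.416). Btnl9, an endothelial butyrophilin, fell by 0.62 ± 0.09 in the PpargΔ/Δ line and was at -0.21 ± 0.09 in the A-ZIP line.

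Of 20 genes of basal urothelium and stratified keratins 7 rose in the PpargΔ/Δ line (2.67% of all genes) and 1 in the A-ZIP line (1.3%). At an unadjusted p under 0.05, 6 differences were above 0 (2.52% of all genes) and none below (3.3%). These 6 were keratins: Krt5, Krt14, Krt15, Krt4, Krt19 and Krt17, of which those after Krt5 were chosen after their values were seen. Krt14, the usual partner of Krt5, read 7.84, 7.29 and 7.88 in PpargΔ/Δ and between 6.46 and 6.79 on the other 9 arrays, and rose by 0.97 ± 0.14 against 0.06 ± 0.14 in A-ZIP (difference 0.91 ± 0.19, limma adjusted p = 0.374). Krt15 rose by 0.71 ± 0.09 against 0.25 ± 0.09. Krt19, a simple epithelial keratin, rose by 1.25 ± 0.20 with an A-ZIP effect of 0.52 ± 0.20. Other members, also chosen after their values were seen, gave other values. Trp63, the master regulator of basal cells, had effects of 0.07 in both lines. Krt7 had effects of 0.24 and 0.38 (the first call was lost without any of 10 arrays, the second without A-ZIP array 2 or FVB control array 1), and the median difference over the list was 0.06. Its number risen in the PpargΔ/Δ line was 4 without PpargΔ/Δ array 3 or mixed control array 1.

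Superficial urothelium, the uroplakin-bearing surface layer, had differences of the opposite sign. Of 12 genes 11 had a difference below 0 (51.2% of all genes), 5 of them at an unadjusted p under 0.05 (3.3%). Median effects were -0.18 in the PpargΔ/Δ line and 0.10 in the A-ZIP line. Upk1b, a tetraspanin of the urothelial plaque, read 6.99, 6.94 and 6.93 in PpargΔ/Δ against 7.98, 7.7 and 7.88 in controls, and 7.74, 8.37 and 8.02 in A-ZIP against 7.65, 8.16 and 7.73. The PpargΔ/Δ arrays were the 3 lowest of the 12. Upk1b fell by 0.91 ± 0.15 in the PpargΔ/Δ line (limma adjusted p = 0.0083), its A-ZIP effect was 0.20 ± 0.15, and the difference was -1.10 ± 0.22 (limma adjusted p = 0.332). Upk1a, Upk3a and Upk2, chosen after their values were seen, had differences of -0.50, -0.34 and -0.27 and passed in neither line. Tmprss2, a membrane serine protease likewise chosen after its values were seen, rose in both lines by 0.36 and 0.38. Mean levels of the 12 genes ran from 7.43 to 7.57 on PpargΔ/Δ arrays, 7.64 to 7.67 on mixed controls, 7.68 to 7.86 on A-ZIP and 7.58 to 7.75 on FVB controls. The sum of their unlogged levels was instead higher in PpargΔ/Δ, from 5105 to 5522 against 4693 to 4782 in its controls. In A-ZIP this sum ran from 5311 to 5797 against 4503 to 4807. The direction in the PpargΔ/Δ line thus depends on the summary. The mean of the 20 basal and keratin genes ran from 7.86 to 8.03 in PpargΔ/Δ against 7.56 to 7.63 in its controls. The part of the amount of urothelium in these differences was not tested.

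Of 19 smooth muscle genes measured, 8 rose in the PpargΔ/Δ line (2.67% of all genes) and 3 in the A-ZIP line (1.3%), and the median difference was 0.06 (0.01 without PpargΔ/Δ array 2). Acta2, the alpha actin of vascular smooth muscle and myofibroblasts, read 11.22, 11.35 and 11.22 in PpargΔ/Δ against 10.33, 10.43 and 10.39, and 10.77, 11.33 and 10.9 in A-ZIP against 10.54, 10.5 and 10.41, with a rise of 0.88 ± 0.11 in the former and 0.52 ± 0.11 in the latter. Tagln, an actin-binding protein of the same cells, rose by 0.63 ± 0.10 and 0.47 ± 0.10. Cnn1, calponin, resembled Actg2 more: it rose by 0.74 ± 0.13 in the PpargΔ/Δ line and was at 0.10 ± 0.13 in the A-ZIP line, with a difference of 0.64 ± 0.18 (limma adjusted p = 0.606). These 3 were chosen after their values were seen. The 3 that passed in the A-ZIP line were Acta2, Tagln and Myocd, and their number there was 0 without mixed control array 3, A-ZIP array 3 or any 1 of the 3 FVB control arrays, and 1 without mixed control array 2 or A-ZIP array 2. The number risen in the PpargΔ/Δ line was 4 without PpargΔ/Δ array 2 or mixed control array 1.

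**Figure D4:**
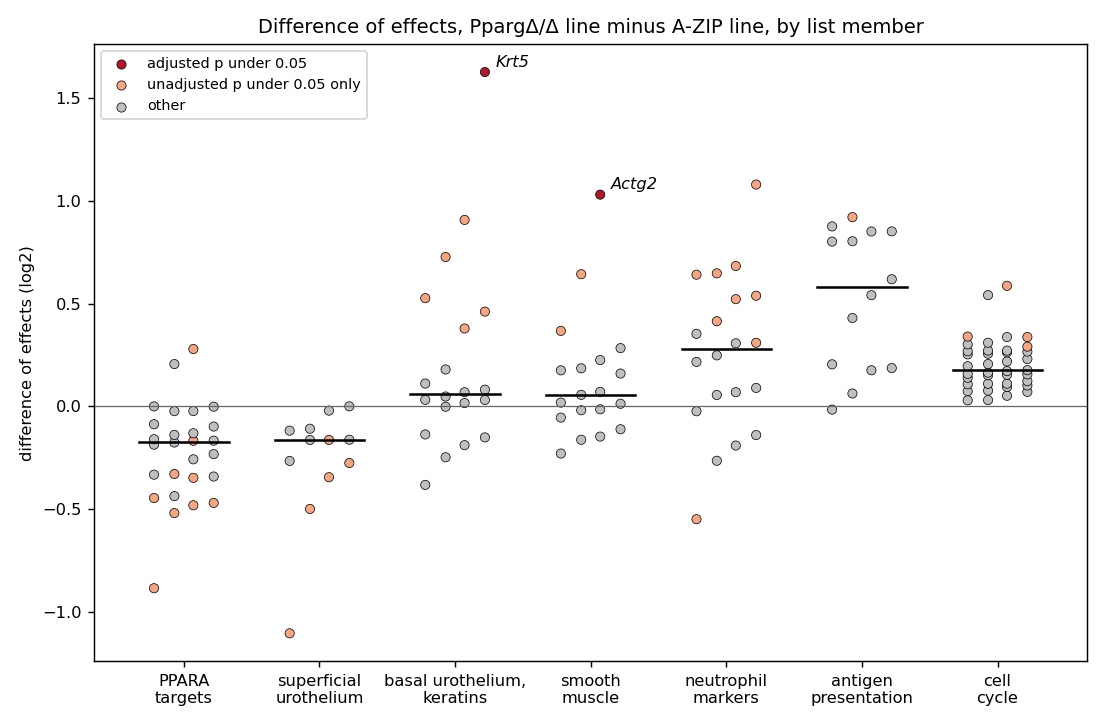
Difference of effects in log2 (vertical) for the members of 7 gene lists, each point a gene and each bar the list median. Red points passed the threshold (Krt5 and Actg2), orange points had an unadjusted p under 0.05 only. PPARα targets and superficial urothelium lie mostly below 0, with 24 of 27 and 11 of 12 genes, and all 39 cell cycle genes lie above it.

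Of 20 neutrophil markers 5 rose (2.67% of all genes) and 1 fell (2.62%) in the PpargΔ/Δ line. None rose (1.3% of all genes) or fell (1.13%) in the A-ZIP line. At an unadjusted p under 0.05, 8 differences were above 0 (2.52% of all genes) and 1 below (3.3%), and the median difference was 0.28. S100a8, a subunit of the calcium-binding protein calprotectin of neutrophils, read 5.81, 5.79 and 5.62 in PpargΔ/Δ and between 4.91 and 5.12 on all other arrays. It rose by 0.74 ± 0.07 in the PpargΔ/Δ line (limma adjusted p = 0.000305), was at 0.10 ± 0.07 in the A-ZIP line, and had a difference of 0.64 ± 0.09 (limma adjusted p = 0.0615). Ngp, a granule protein picked with its values known, read 5.95, 5.56 and 5.93 against 4.96, 5.06 and 4.96, and rose by 0.82 ± 0.13 against an A-ZIP effect of 0.17 ± 0.13. As with Cfi, whether the low readings of S100a8 and Ngp lie above background was not tested. Lcn2, a granule protein that injured tubules also make, rose by 1.94 ± 0.24 in the PpargΔ/Δ line and was at 0.87 ± 0.24 in the A-ZIP line (limma adjusted p = 0.0847). The 25 tubular injury genes, which include it, had 10 rises in the PpargΔ/Δ line (2.67% of all genes) and 5 in the A-ZIP line (1.3%), with medians of 0.27 and 0.23. With an array left out these counts ran from 5 to 10 and from 0 to 5. Mmp9, the gelatinase of neutrophil granules, was the gene that fell (-0.41 ± 0.10), a call lost without PpargΔ/Δ arrays 1 or 3 or mixed control arrays 1 or 3. Camp, an antimicrobial peptide of granules chosen after its values were seen, had effects of 0.12 and 0.06. The mean of the 20 markers was 5.68 to 5.98 on PpargΔ/Δ arrays, 5.45 to 5.48 on mixed controls, 5.48 to 5.56 on A-ZIP and 5.41 to 5.49 on FVB controls. The part of neutrophil number was not tested. Without PpargΔ/Δ array 1 the median difference was 0.09, and without mixed control array 1 the number risen was 3.

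Antigen presentation genes had the largest median difference of the lists, 0.58 over 14 genes, without a call in any contrast. The lines started from unequal levels: the mean of the 14 genes ran from 9.16 to 9.58 on mixed controls and 8.53 to 8.57 on FVB controls. Whether the probes read both backgrounds alike was not tested. H2-Ab1, a class II chain of antigen-presenting cells, was picked with its values known. It read 11.89, 10.29 and 11.27 in PpargΔ/Δ, 10.35, 10.03 and 10.99 in mixed controls, and 7.26 to 8.36 on the 6 FVB background arrays. PpargΔ/Δ arrays overlapped their controls, and the spread within that group was wider than the effect of 0.70 ± 0.38. Without PpargΔ/Δ array 1 the median difference was 0.10 and without PpargΔ/Δ array 2 it was 0.95, with 3 genes risen in the PpargΔ/Δ line. The 28 macrophage and dendritic cell markers had a median difference of 0.06, from -0.05 to 0.22 with an array left out, and no call in either line, and neither did 20 T and NK cell or 10 B cell markers.

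All 39 cell cycle genes had a difference above 0 (48.8% of all genes), with a median of 0.18. In the PpargΔ/Δ line 10 rose (2.67% of all genes) and in the A-ZIP line none (1.3%). Median effects were 0.42 and 0.23, so the genes lay above 0 in both. Ccnd1, the G1 cyclin, read 12.1, 12.16 and 12.1 against 11.65, 11.63 and 11.82 and rose by 0.42 ± 0.06, with an A-ZIP effect of 0.13 ± 0.06 (difference 0.29 ± 0.09, limma adjusted p = 0.661). Mcm2, a replication licensing factor, rose by 0.57 ± 0.09 against 0.23 ± 0.09. The shared sign rests on single arrays: 23 of 39 were above 0 without mixed control array 2 (median 0.02), 27 without A-ZIP array 3 (median 0.04), 31 without PpargΔ/Δ array 1 (median 0.08) and 33 without FVB control array 3 (median 0.09). The number risen in the PpargΔ/Δ line was between 2 and 7 without any 1 of the 6 arrays of that line, and 6 without FVB control array 1.

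Arntl and Nfil3, clock genes that peak together, rose in both lines. Arntl, which encodes BMAL1, the activator of the clock, read 8.3, 8.41 and 8.7 in PpargΔ/Δ against 6.94, 6.77 and 6.84 in controls, and 8.51, 8.15 and 8.39 in A-ZIP against 7.69, 7.45 and 7.61. Neither pair overlapped. The rise was 1.62 ± 0.11 (3.07-fold) in the first and 0.77 ± 0.11 (1.70-fold) in the second, and the difference 0.85 ± 0.16 (limma adjusted p = 0.271). Mutant means, 8.47 ± 0.21 and 8.35 ± 0.18 (SD, n = 3), lay within their spread, and the controls, 6.85 ± 0.09 and 7.58 ± 0.12, did not overlap. Nfil3, a repressor of the same phase, rose by 1.37 ± 0.11 and 0.68 ± 0.11 (difference 0.69 ± 0.16, limma adjusted p = 0.482), the second call being lost without FVB control array 2. Of 12 genes that peak opposite to Bmal1, 5 fell in the PpargΔ/Δ line (2.62% of all genes) and 1 rose in the A-ZIP line (1.3%). With an array left out these counts ran from 1 to 5 and from 0 to 1. Median effects of the 12 were below 0 in both lines, at -0.393 and -0.275. Per2 had effects of -0.40 ± 0.12 and 0.02 ± 0.12 and Bhlhe40 0.01 ± 0.09 and -0.38 ± 0.09, and none of these passed.

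Prostaglandin and complement lists each held 1 gene past the threshold in the difference, Ptgds and Cfi. In the renin angiotensin and prostaglandin list of 17, Ptger3 is a prostaglandin E2 receptor of the thick limb. It read 9.76, 9.68 and 9.65 against 9.13, 9.19 and 9.33 in the PpargΔ/Δ line and 9.56, 9.61 and 9.59 against 9.5, 9.45 and 9.49 in the A-ZIP line, and rose by 0.48 ± 0.05 in the former against 0.11 ± 0.05 (difference 0.37 ± 0.08, limma adjusted p = 0.332). Ptgs2, the inducible cyclooxygenase chosen after its values were seen, had effects of 0.53 and 0.41. Of 22 complement genes 1 rose (2.67% of all genes) and 2 fell (2.62%) in the PpargΔ/Δ line and 2 fell in the A-ZIP line (1.13%). The A-ZIP falls, Cfb and C8a (a chain of the membrane attack complex), both picked with their values known, numbered 0 without mixed control array 2, A-ZIP arrays 2 or 3 or FVB control arrays 1 or 2, and 1 without 5 others. Cfb, factor B of the alternative pathway, fell by 0.41 and 0.39, calls that were lost without any of 4 and of 9 arrays.

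Some other lists had medians of the difference between -0.09 and 0.01. Over all genes 2.67% rose and 2.62% fell in the PpargΔ/Δ line, and 1.3% rose and 1.13% fell in the A-ZIP line. Of 32 interstitial matrix genes 9 rose in the PpargΔ/Δ line and 8 in the A-ZIP line, with a median difference of -0.01. Glucocorticoid-responsive genes gave 7 rises in each line among 18, with a median difference of -0.08. Of 25 genes repressed by insulin or induced by fasting 9 rose and 3 fell in the PpargΔ/Δ line and 8 rose and 1 fell in the A-ZIP line. Their median difference was -0.09, with 18 of 25 below 0 (51.2% of all genes). None of the 47 oxidative phosphorylation genes passed in any contrast, and the median difference was 0.01. Proximal tubule markers fell in 8 of 26 cases in the PpargΔ/Δ line and 1 in the A-ZIP line, although their median effects, -0.22 and -0.15, were close. The 10 fallen SLC22 and SLCO transporters of 32 in the PpargΔ/Δ line stood beside 4 in the A-ZIP line with a median difference of 0.00. With an array left out the counts for the PpargΔ/Δ line ran from 3 to 10 for matrix, 3 to 9 for glucocorticoid, 6 to 10 for fasting, 2 to 11 for proximal tubule and 2 to 11 for transporter genes, and for the A-ZIP line from 0 to 12, 2 to 8, 4 to 8, 0 to 3 and 0 to 6. The 50 measured genes on each side of Pparg, which can carry alleles of another strain near a targeted locus, had 3 rises (2.67% of all genes) and 3 falls (2.62%) in the PpargΔ/Δ line, 3 rises (1.3%) and 1 fall (1.13%) in the A-ZIP line, and no call in the difference, with a median of 0.01.

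Further lists had median differences farther from 0 without a call in the difference. Over all genes 48.8% of differences were above 0 and 51.2% below. The median was 0.21 for 10 red blood cell genes, 9 of them above 0, 0.14 for 21 sex dimorphic genes (0.03 to 0.21 with an array left out), 0.12 for 24 genes of the integrated stress response, 19 above 0, and 0.12 for 16 of the unfolded protein response, 14 above 0. It was -0.14 for 14 brown fat genes, 11 below 0, -0.12 for 18 imprinted growth genes, 14 below 0, and -0.11 for 25 thyroid and retinoid genes. Of the integrated stress response genes 6 rose in the PpargΔ/Δ line (2.67% of all genes) and 1 in the A-ZIP line (1.3%). With an array left out these counts ran from 0 to 6 and from 0 to 1, the first being 0 without mixed control array 1.

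**Figure D5:**
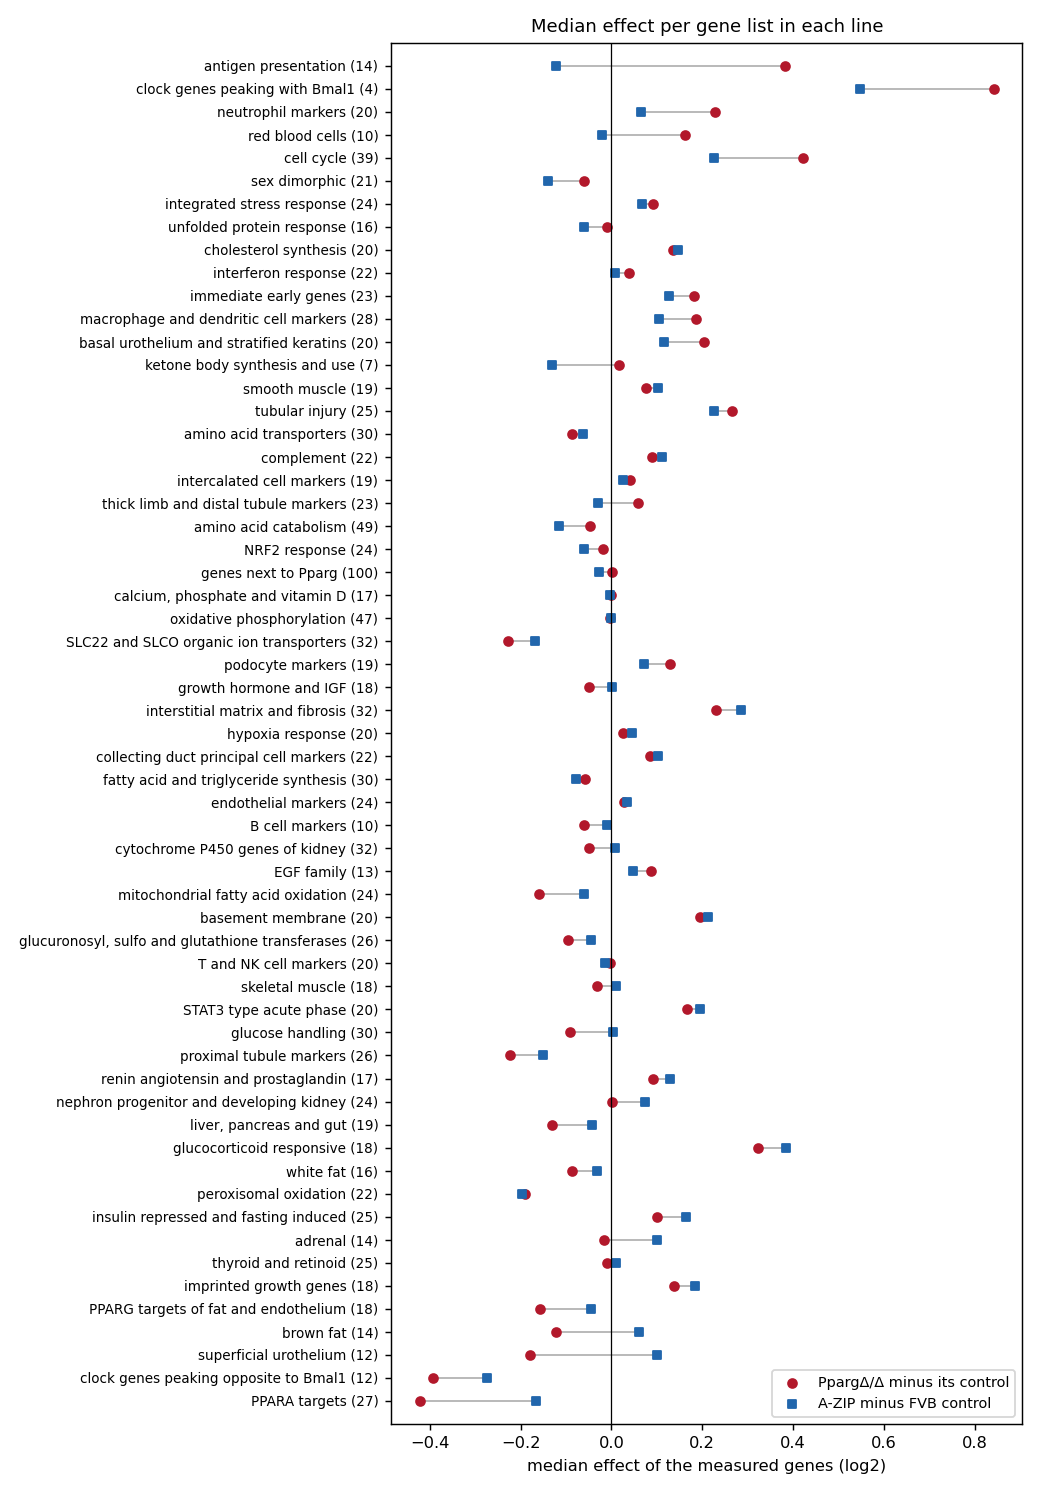
Median effect in log2 (horizontal) of the measured genes of 59 lists, with the number measured in brackets, in the PpargΔ/Δ line (red circles) and the A-ZIP line (blue squares), ordered by the median difference. Antigen presentation (0.38 and -0.12) stands at the top and PPARα targets (-0.42 and -0.17) at the bottom.

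Of the 20 genes, 2 passed the threshold in the A-ZIP line and not in the PpargΔ/Δ line. Kank4, an ankyrin repeat protein that regulates actin, read 7.12, 7.2 and 7.16 in A-ZIP against 7.45, 7.49 and 7.39, and 7.58, 7.48 and 7.58 in PpargΔ/Δ against 7.45, 7.36 and 7.38. Neither pair overlapped, and the directions were opposite. Kank4 fell by 0.28 ± 0.05 in the A-ZIP line (limma adjusted p = 0.0159) and was at 0.15 ± 0.05 in the PpargΔ/Δ line, with a difference of 0.43 ± 0.07 (limma adjusted p = 0.119). Ackr1, the Duffy chemokine receptor of venules, read 5.46, 5.5 and 5.43 in A-ZIP and between 5.03 and 5.25 on the other 9 arrays. It rose by 0.30 ± 0.05 (limma adjusted p = 0.0187) against -0.08 ± 0.05 in the PpargΔ/Δ line, with a difference of -0.38 ± 0.08 (limma adjusted p = 0.332). Whether the low readings of Ackr1 lie above background was not tested. The Kank4 call was lost without FVB control array 1 or 2, and the Ackr1 call without A-ZIP array 2 or FVB control arrays 1 or 3.

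Among genes past the threshold in the A-ZIP line alone, those with the next smallest p of the difference were Aldh1a7, Setd4, Lasp1, Mtmr4, Apom and Cdc42ep4, chosen after their values were seen. Apom, the apolipoprotein that carries sphingosine 1-phosphate, was the largest and kept its call without any 1 array. It read 7.61, 7.22 and 7.07 in A-ZIP against 8.36, 8.32 and 8.11, and 8.64, 8.76 and 8.5 in PpargΔ/Δ against 8.95, 8.91 and 8.73. Apom fell by 0.96 ± 0.13 in the A-ZIP line (1.95-fold, limma adjusted p = 0.00655), was at -0.23 ± 0.13 in the PpargΔ/Δ line, and had a difference of 0.73 ± 0.18 (limma adjusted p = 0.571). Aldh1a7, an aldehyde dehydrogenase, rose by 0.56 ± 0.09 in the A-ZIP line against -0.02 ± 0.09, a call lost without A-ZIP array 2 or FVB control array 1. The calls of Lasp1, Mtmr4, Cdc42ep4 and Setd4 were each lost without 3 or more single arrays. Etnppl, which breaks down phosphoethanolamine, also chosen after its values were seen, rose in both lines and more in A-ZIP, by 1.36 ± 0.14 against 0.56 ± 0.14 (difference -0.81 ± 0.19, limma adjusted p = 0.51), though the PpargΔ/Δ call was lost without any of 6 arrays.

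As a contrast, the 5 genes most alike among the 246 past the threshold in both lines were Acot4, Otulinl, Hipk1, Ldhd and Esrrb. Acot4 read 9.84, 9.78 and 9.79 against 10.42, 10.34 and 10.27 in the PpargΔ/Δ line and 10.09, 9.91 and 10.16 against 10.61, 10.64 and 10.55 in the A-ZIP line, a fall of 0.54 in both. Ldhd, mitochondrial D-lactate dehydrogenase, fell by 0.52 and 0.53, Esrrb, an orphan nuclear receptor, rose by 0.34 and 0.33, Otulinl by 0.47 and 0.48, and the kinase Hipk1 by 0.21 in each. Of these, Acot4 alone kept both calls without any 1 array: the A-ZIP call was lost without any of 12 arrays for Hipk1, 4 for Ldhd, 4 for Esrrb and 1 for Otulinl.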

How the data were processed

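RNA of whole kidney was measured on 12 Affymetrix whole-transcript arrays in 4 groups of 3, grouped by title. Per the submitters' processing notes, the authors computed the deposited log2 values by RMA, with Expression Console of Affymetrix; no version or annotation build is given in the sources used here. RMA pulls arrays to a common distribution, so a shift of most genes would not show, and the number of arrays limits the precision. Of 35556 probe sets 21789 had 1 gene symbol, 1621 several and 12146 none. Symbols were updated by Entrez number (21698; 91 kept) from a RefSeq table of GRCm38.p6. Where several probe sets named a gene (999 genes), the brightest on average stood for it.

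A model of 4 group means, over all 12 arrays, was fitted in R 4.3.3 by limma 3.58.1 (8 residual and 3.71 prior degrees of freedom), and p-values were adjusted over 19938 genes. The threshold was an adjusted p under 0.05. Gene lists (58, with 1262 of 1372 entries measured, and the neighbours of Pparg) were described by counts and medians, with no test. The comparison, members and lists were chosen with earlier results of these data known.

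The rule for naming genes took Pparg, the genes past the threshold or, as fewer than 20 passed, the 20 with the smallest p, up to 4 members of each list past the threshold or else up to 2 with the smallest p, and the 5 genes most alike in both lines. Predicted genes were counted, not named. Genes outside the rule are so marked in the text, apart from Umod, Slc34a1, Xist, Eif2s3y and Myocd. These were also named with their values known. The same replicate number in 2 groups was not taken as a pair, since in neither line did the deviations of every same-numbered mutant and control correlate over 0.1. Those of the 2 controls did, at 0.247, 0.181 and 0.135, and whether the number marks a batch was not tested. The fit was tested on simulated data. Alternatives were other normalizations, filters, probe set rules, variance models, array weights, replicate blocks, each array left out, other thresholds and other limits for a flat effect.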

Additional observations from a re-analysis of the deposited data

Results flagged for a closer look

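The 4 genes past the threshold in the difference of effects stood out because the test of that difference itself passed (limma, adjusted over 19938 genes). Actg2 had a difference of 1.03 and was higher in 3 of 3 PpargΔ/Δ arrays than in any control. Krt5 had a difference of 1.63 in log2, again with 3 of 3 arrays above all others. Cfi had a difference of -1.60, with FVB readings far below those of the mixed background, and Ptgds one of -1.05, with the A-ZIP arrays on the other side of their controls. Whether the strain background, the mutation or both set these differences cannot be told apart.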

How the results depend on the processing

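The difference of effects gave 4 genes in the main analysis. Without genes under percentile 50 of mean level it gave 1, with all probe sets 0 (1802 at an unadjusted p under 0.05), with a replicate block 1, with the block within each background 2, and at an adjusted p under 0.10 7. Genes past the threshold in the difference and in the PpargΔ/Δ line only are called moved in that line alone. They numbered 1, 0, 0, 2 and 7 under these settings, and the replicate block put 1 gene, Ptgds, among those moved in opposite directions. With each array left out the difference gave 0 to 9 genes, those moved in the PpargΔ/Δ line alone 0 to 9, those in opposite directions 0 to 1, and those moved in the A-ZIP line alone 0 throughout. Genes flat in the A-ZIP line numbered 2 after quantile normalization again, equal medians, array weights, the block within background or an adjusted p under 0.10, 0 under the percentile 50 filter, all probe sets or the replicate block, 4 with a limit of log2 1.5, and 0 to 4 with an array left out. The PpargΔ/Δ line gave 667 genes with the block within background, 1938 at an adjusted p under 0.10, 181 with a change of at least 1.5-fold, and 330 to 1220 with an array left out. The A-ZIP line gave 836 under the percentile 50 filter, 176 with all probe sets, 785 with a variance trend, 313 with the block within background, 1035 at an adjusted p under 0.10, 81 with at least 1.5-fold, and 62 to 606 with an array left out. Left out in turn, an array moved the difference of Actg2 between 0.97 and 1.10, of Krt5 between 1.45 and 1.77, of Cfi between -1.74 and -1.47 and of Ptgds between -1.12 and -0.95, and their adjusted p-values reached 0.0625, 0.0915, 0.0915 and 0.0915. Under the replicate block Actg2, Krt5 and Cfi had adjusted p-values of 0.0691, 0.114 and 0.133. The numbers are not known pairs: same-numbered deviations correlated from 0.00863 to 0.184 in the PpargΔ/Δ line and from -0.103 to -0.00987 in the A-ZIP line, but at 0.247, 0.181 and 0.135 between the controls of the 2 backgrounds, where every array correlated best with its own number, a hint from the data and not from the design. No called effect reversed in any alternative, but the median difference of 26 of 59 lists, none above 0.0989 in size, changed sign in 1 or more (25 with an array left out). The cause of these shifts was not tested.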
